A study of Homo sapiens with 6 samples.

Results

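The genes described here are 9 factors that fold, oxidise or clear proteins in the endoplasmic reticulum (ER) and XBP1, a transcription factor of the unfolded protein response. They are HSPA5, HYOU1, HSP90B1, DNAJB9, DNAJC3, SDF2L1, PDIA4, PDIA6, HERPUD1 and XBP1. Members were taken as the rows whose Entrez identifier maps to these symbols, which gave 10 of the 27434 rows of each file, and all 10 passed the filter on low counts that left 13034 rows for testing. Membership rests on the gene symbol alone, but the set was drawn up with earlier results of these data known. HT-29, a human colorectal cancer cell line, was transfected with pools of siRNAs against HOXA-AS3 (siHOXA-AS3), against HOXB-AS3 (siHOXB-AS3) or with a non-targeting pool (siNT), and cells were collected after 48 h. HOXA-AS3 and HOXB-AS3 are long noncoding RNAs transcribed from the HOXA and HOXB clusters. The sample labels give an siRNA dose of 10 nM for all 3 groups, and the methods of the study give another dose. PolyA RNA was sequenced in 2 libraries per group, and as the labels do not say whether the libraries came from separate cultures, p-values measure the spread between these libraries only.

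The ER folds secreted and membrane proteins with an Hsp70 (HSPA5, also called BiP), an Hsp90 (HSP90B1), J-domain co-chaperones and disulfide isomerases. When unfolded protein accumulates, the sensors IRE1, PERK and ATF6 start the unfolded protein response, in which IRE1 removes a short intron from XBP1 mRNA, PERK slows translation and favours ATF4, and ATF6 is cut to a transcription factor. ATF6 and spliced XBP1 raise transcription of ER chaperones and of factors for ER-associated degradation. In the intestine XBP1 is known for its need in secretory cells, such as Paneth and goblet cells.

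The known promoter element of this response is the ER stress response element (ERSE), a CCAAT box, bound by the factor NF-Y, and a CCACG site that ATF6 can bind. RefSeq promoter windows of GRCh38.p14, from 250 bases before to 50 bases after a transcription start, were searched on both strands for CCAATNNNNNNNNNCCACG (ERSE), ATTGGNCCACG (ERSE-II) and TGACGTGG (the core of the unfolded protein response element, UPRE). All 10 genes had a window, and XBP1, PDIA4 and PDIA6 had 2 each, 13 windows in all. ERSE was found in windows of 4 of the 10 genes (HSPA5, HSP90B1, PDIA6 and XBP1) and ERSE-II in windows of 3 others (HYOU1, SDF2L1 and HERPUD1). Counted by window, 4 of the 13 held ERSE, 3 held ERSE-II and 7 held either. Among all 35116 windows, these 13 included, 0.0769% held ERSE, 0.0541% held ERSE-II and 0.131% held either. As ERSE is the known element of this response, finding it in genes of the response is no independent result. The UPRE core was found in the HYOU1 window, where its match overlaps the distal ERSE-II match, and in 0.729% of all windows. No match to these letters was found in the windows of DNAJB9, DNAJC3 and PDIA4. A match is a description of the sequence, and binding was not measured here.

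The sequences of 5 members are shown because they carry the element and include the genes that the comparisons turn on. Each run holds the 250 bases before the start on the strand of the gene, 5′ to 3′, with the bases of motif matches in capitals, and a match on the other strand appears as its reverse complement. The ERSE match of HSPA5 (chr9:125241344-125241593, minus strand) spans -66 to -48 from the start, and that of the first window of XBP1 (chr22:28800570-28800819, minus strand) spans -52 to -34. HYOU1 (chr11:119057206-119057455, minus strand) holds ERSE-II matches at -185 to -175 and -79 to -69 and the UPRE core at -188 to -181. SDF2L1 (chr22:21642052-21642301, plus strand) holds ERSE-II at -188 to -178 and HERPUD1 (chr16:56931892-56932141, plus strand) at -117 to -107.
HSPA5: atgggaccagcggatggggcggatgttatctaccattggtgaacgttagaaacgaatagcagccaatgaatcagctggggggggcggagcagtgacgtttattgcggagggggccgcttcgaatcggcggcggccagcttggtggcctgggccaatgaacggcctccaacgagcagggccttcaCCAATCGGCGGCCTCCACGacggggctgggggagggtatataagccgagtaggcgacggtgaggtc
XBP1: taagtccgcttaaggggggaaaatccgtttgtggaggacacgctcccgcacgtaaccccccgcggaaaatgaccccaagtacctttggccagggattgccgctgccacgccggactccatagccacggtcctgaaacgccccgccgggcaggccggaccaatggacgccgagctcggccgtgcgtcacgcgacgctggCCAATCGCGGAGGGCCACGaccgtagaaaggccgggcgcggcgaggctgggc
HYOU1: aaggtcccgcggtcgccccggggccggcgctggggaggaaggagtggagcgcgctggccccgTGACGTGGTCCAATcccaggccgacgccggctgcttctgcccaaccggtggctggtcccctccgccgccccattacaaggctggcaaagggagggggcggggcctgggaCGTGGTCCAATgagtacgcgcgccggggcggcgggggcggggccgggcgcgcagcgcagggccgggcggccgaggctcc
SDF2L1: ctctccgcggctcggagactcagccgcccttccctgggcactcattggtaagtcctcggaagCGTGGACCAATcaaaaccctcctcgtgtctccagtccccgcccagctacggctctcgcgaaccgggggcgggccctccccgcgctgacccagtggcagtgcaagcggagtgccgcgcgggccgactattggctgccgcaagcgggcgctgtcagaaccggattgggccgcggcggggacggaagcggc
HERPUD1: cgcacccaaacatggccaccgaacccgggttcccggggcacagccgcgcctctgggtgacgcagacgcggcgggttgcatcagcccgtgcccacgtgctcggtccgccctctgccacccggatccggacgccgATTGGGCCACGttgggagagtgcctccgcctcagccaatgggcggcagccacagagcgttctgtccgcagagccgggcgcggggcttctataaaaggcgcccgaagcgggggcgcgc

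**Figure D1:**
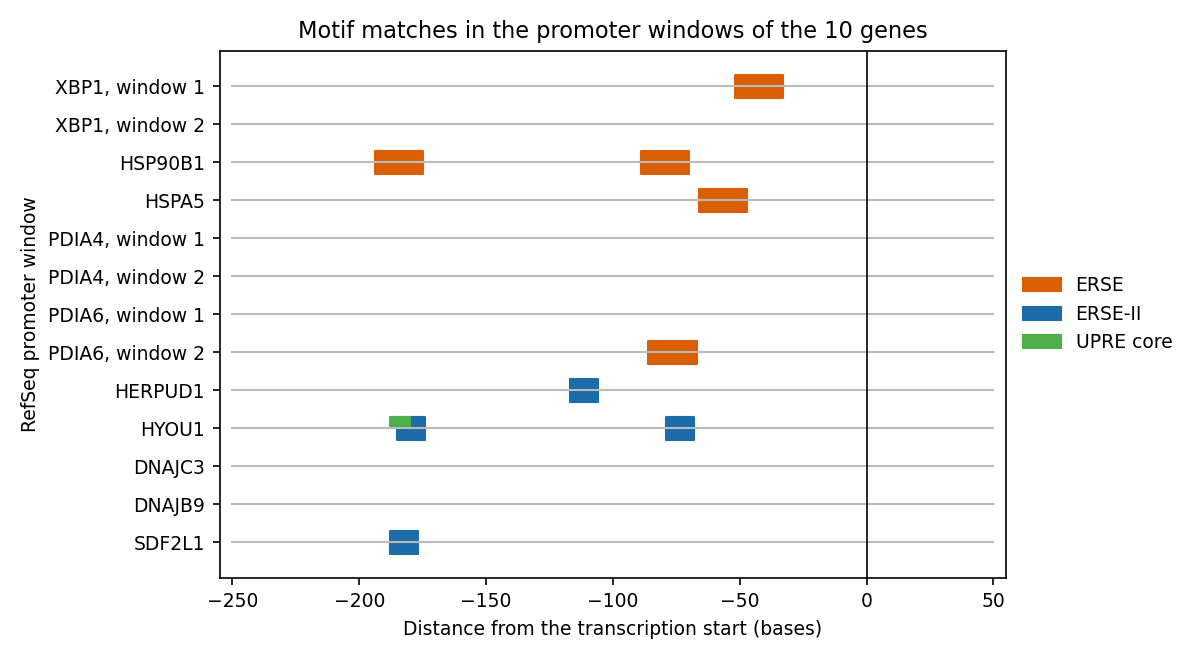
Positions of motif matches in the RefSeq promoter windows of the 10 genes, with the distance from the transcription start in bases on the x axis and 1 line per window. Matches lie between -194 and -34, and 6 of the 13 windows hold none.

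The libraries held 15998518 to 26263938 expected counts each. The 2 siHOXA-AS3 libraries stood apart from each other. Their log2 CPM differed with an SD over genes of 0.73, where the siNT pair had 0.42 and the siHOXB-AS3 pair 0.37, and the siHOXA-AS3 difference followed GC content (Pearson r = 0.75 for replicate 1 minus replicate 2 over 12768 genes, which are not independent replicates). HOXB-AS3 was measured at 27.0 and 29.3 FPKM in siNT and at 6.05 and 7.96 FPKM in siHOXB-AS3 (log2 fold change -1.96 ± 0.25 SE, edgeR adjusted p = 0.0678), and HOXA-AS3 was low, with 38 and 18 counts in siNT and 12 and 12 counts in siHOXA-AS3 (log2 fold change -1.09 ± 0.40 SE, adjusted p = 0.711). Of 9 colon epithelial markers, 7 stood at 1 FPKM or more in all 6 libraries and CDX1 and CDX2 stayed at or under 0.34 FPKM. The 8 markers of leukocytes, endothelium and fibroblasts summed to 9.89 to 15.9 FPKM, of which CD68, the 1 marker that passed the filter, gave 9.74 to 15.7 FPKM. PTPRC and COL1A1 reached at most 0.10 and 0.07 FPKM, and COL1A2 and DCN were at 0 in every library. In bulk RNA, fewer cells with a transcript and less of it per cell cannot be told apart.

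In the siNT libraries the 10 genes ran from a mean of 3.39 to one of 409 FPKM, a scale that corrects for gene length. XBP1 was highest, with 409 ± 2.01 FPKM (mean ± SD, n = 2), above 99.1% of all rows. HSP90B1 (204 ± 18.9 FPKM) and HSPA5 (156 ± 8.22 FPKM) followed. The isomerases PDIA4 (93.5 ± 7.81 FPKM) and PDIA6 (66.7 ± 3.78 FPKM), HERPUD1 (58.5 ± 2.46 FPKM) and HYOU1 (46.7 ± 5.15 FPKM) lay in the middle. The co-chaperones were lowest, with DNAJC3 at 11.0 ± 1.44 FPKM, DNAJB9 at 6.32 ± 1.16 FPKM and SDF2L1 at 3.39 ± 0.354 FPKM. No neighbours in this order had overlapping siNT libraries. Across all 6 libraries, PDIA4 stood above PDIA6, and PDIA6 above HERPUD1, in 5 libraries each, DNAJB9 stood above SDF2L1 in 4, and every other neighbouring pair kept its order in all 6. In TPM, where all genes of a library sum to the same total, the 10 genes together held 1565 and 1468 TPM in siNT, 1431 and 1717 TPM in siHOXA-AS3 and 1201 and 1271 TPM in siHOXB-AS3. The share of XBP1 in that sum was 38.4% and 39.2% in siNT, 44.0% and 38.8% in siHOXA-AS3, and 31.4% and 28.2% in siHOXB-AS3, so both siHOXB-AS3 libraries lay below the other 4. Without XBP1 the sum was 964 and 893 TPM in siNT, 801 and 1050.5 TPM in siHOXA-AS3 and 824 and 913 TPM in siHOXB-AS3, and the 3 groups overlapped.

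**Figure D2:**
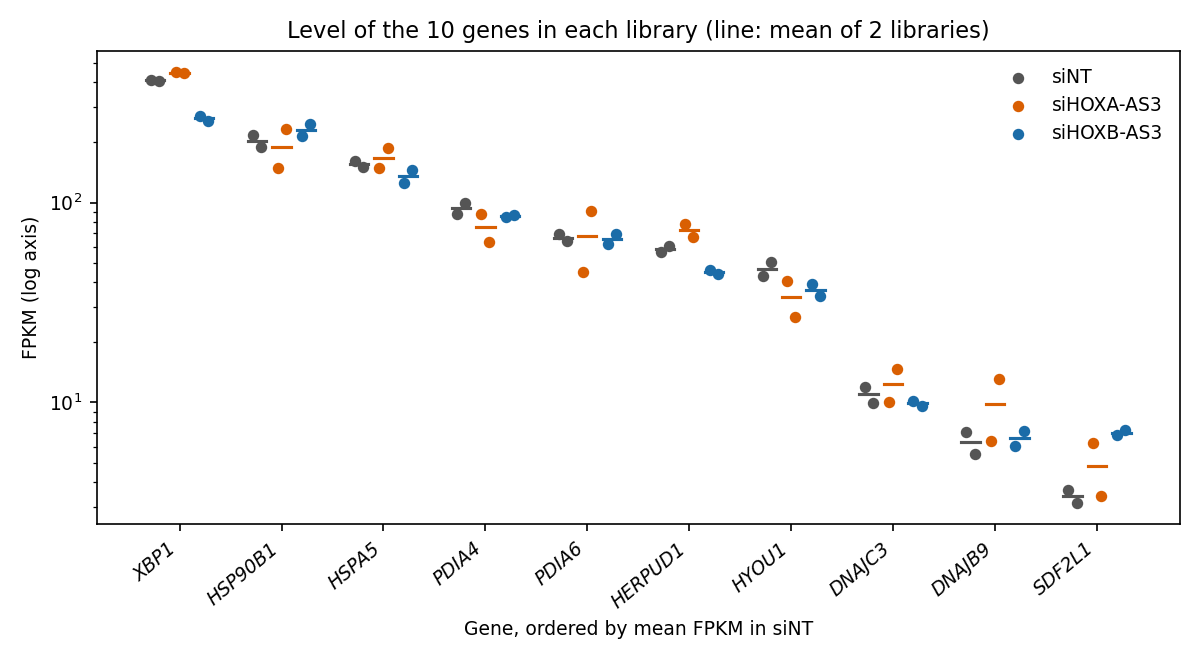
FPKM of the 10 genes in each library on a log axis, ordered by mean FPKM in siNT, with points for single libraries coloured by siRNA and lines for the mean of 2 libraries. XBP1 lies at 255 and 272 FPKM in siHOXB-AS3 and at 407 to 448 FPKM in the other 4 libraries.

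HSPA5 (Entrez 3309, chr9:125234853-125241343 in RefSeq GRCh38.p14) is the Hsp70 of the ER lumen, which binds nascent chains and also holds the stress sensors inactive. Its level was 162 and 149.9 FPKM in siNT, 148 and 187 FPKM in siHOXA-AS3, and 125 and 146 FPKM in siHOXB-AS3. The ranges of siNT and siHOXA-AS3 overlapped, and siHOXB-AS3 lay just below siNT in FPKM but overlapped it in TMM-normalised log2 CPM. HYOU1 (Entrez 10525, chr11:119044188-119057205), an Hsp70 relative that exchanges the nucleotide of HSPA5, was at 43.05 and 50.3 FPKM in siNT, 40.65 and 26.65 FPKM in siHOXA-AS3, and 39.2 and 34.0 FPKM in siHOXB-AS3. All 4 knockdown libraries lay below both siNT libraries.

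HSP90B1 (Entrez 7184, chr12:103930410-103947926), the ER Hsp90 with integrins and Toll-like receptors among its clients, shares its row with the microRNA gene MIR3652. It measured 217 and 191 FPKM in siNT, 148 and 232 FPKM in siHOXA-AS3, and 216 and 246 FPKM in siHOXB-AS3. The 2 siHOXA-AS3 libraries were the lowest and the second highest of the 6.

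Of the J-domain co-chaperones, which deliver substrates to HSPA5 and set off its ATP cycle, DNAJB9 (Entrez 4189, chr7:108569874-108574850) was at 7.14 and 5.50 FPKM in siNT, 6.38 and 13.1 FPKM in siHOXA-AS3, and 6.06 and 7.22 FPKM in siHOXB-AS3. Its highest value was in siHOXA-AS3 replicate 2 and the other 5 libraries lay between 5.50 and 7.22 FPKM. DNAJC3 (Entrez 5611, chr13:95677139-95794988), which also restrains the kinase PERK, was at 12.0 and 9.94 FPKM in siNT, 10.1 and 14.7 FPKM in siHOXA-AS3, and 10.1 and 9.63 FPKM in siHOXB-AS3, with the same library highest. SDF2L1 (Entrez 23753, chr22:21642302-21644299) has no J domain and acts with the co-chaperone DNAJB11. It had 72 and 38 counts in siNT (3.64 and 3.14 FPKM), 110 and 43 counts in siHOXA-AS3 (6.25 and 3.39 FPKM), and 128 and 120 counts in siHOXB-AS3 (6.86 and 7.24 FPKM). Both siHOXB-AS3 libraries lay above the other 4, and its counts, the lowest of the 10 genes, carry the largest counting error.

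The disulfide isomerases form and reshuffle disulfide bonds in client proteins. PDIA4 (Entrez 9601, chr7:149003051-149028505) measured 88.0 and 99.05 FPKM in siNT, 87.3 and 63.7 FPKM in siHOXA-AS3, and 84.3 and 86.4 FPKM in siHOXB-AS3, with the lowest value in siHOXA-AS3 replicate 2. PDIA6 (Entrez 10130, chr2:10783391-10837712), which also acts on IRE1, measured 69.4 and 64.0 FPKM in siNT, 44.7 and 91.0 FPKM in siHOXA-AS3, and 62.2 and 69.8 FPKM in siHOXB-AS3. The 2 siHOXA-AS3 libraries were its lowest and highest of all 6.

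XBP1 (Entrez 7494, chr22:28794560-28800569) is the transcription factor whose mRNA IRE1 splices. It measured 410.1 and 407 FPKM in siNT, 448 and 444 FPKM in siHOXA-AS3, and 272 and 255 FPKM in siHOXB-AS3. Both siHOXB-AS3 libraries were the lowest of the 6, both siHOXA-AS3 libraries the highest, and the 3 groups did not overlap. Its row sums 2 RefSeq transcripts, NM_005080 and NM_001079539, the unspliced and spliced forms, so the splicing by IRE1 was not measured. HERPUD1 (Entrez 9709, chr16:56932142-56944864), an ER membrane protein of the degradation complex, ordered the groups as XBP1 did, with 56.8 and 60.3 FPKM in siNT, 78.1 and 66.8 FPKM in siHOXA-AS3, and 46.2 and 43.9 FPKM in siHOXB-AS3.

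HOXA-AS3 KD against siNT asked what loss of HOXA-AS3 RNA did to these genes, and no member passed the test. In edgeR's fit of all 6 libraries, 0 of the 10 genes reached an adjusted p under 0.05, as did 0.0% of the 13034 genes tested. None of the 10 had an unadjusted p under 0.05, against 803 of all genes, and DESeq2 (0.391% of all genes) and limma-trend also called 0 members. The median log2 fold change of the 10 was 0.13, beside 0.01 over all genes tested. DNAJB9 had the largest value (log2 fold change 0.63 ± 0.36 SE, edgeR adjusted p = 0.91), and leaving out replicate 1 of siHOXA-AS3 gave 1.06 where leaving out replicate 2 gave 0.017. Next were SDF2L1 (0.51 ± 0.34 SE, adjusted p = 0.952) and HYOU1 (-0.46 ± 0.23 SE, adjusted p = 0.869). XBP1 differed by 0.13 ± 0.13 and HSPA5 by 0.12 ± 0.17. Libraries did not overlap for 4 of the 10 genes, with XBP1 and HERPUD1 higher and HYOU1 and PDIA4 lower in siHOXA-AS3, and PDIA4 only by 245.03 against 244.997 CPM at the nearest libraries. Of all genes tested, 28.6% did not overlap.

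The siHOXA-AS3 means rest on 2 libraries that lay further apart than the libraries of the other groups. The log2 CPM of replicate 2 minus that of replicate 1 ran from -0.86 for SDF2L1 to 1.04 for DNAJB9, with 1.03 for PDIA6, 0.65 for HSP90B1 and -0.60 for HYOU1. The median size of this difference over the 10 genes was 0.58, against 0.18 in siNT and 0.13 in siHOXB-AS3. Over the 10 genes the replicate 1 minus replicate 2 difference in siHOXA-AS3 had r = 0.87 with GC content, which ran from 39.9% for DNAJC3 to 65.5% for SDF2L1. Removing a loess trend on GC content from each library brought the median size to 0.17, and PDIA6 kept the largest difference, 0.82. XBP1, at 49.8% GC, differed by -0.01 between these 2 libraries, less than any other member.

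**Figure D3:**
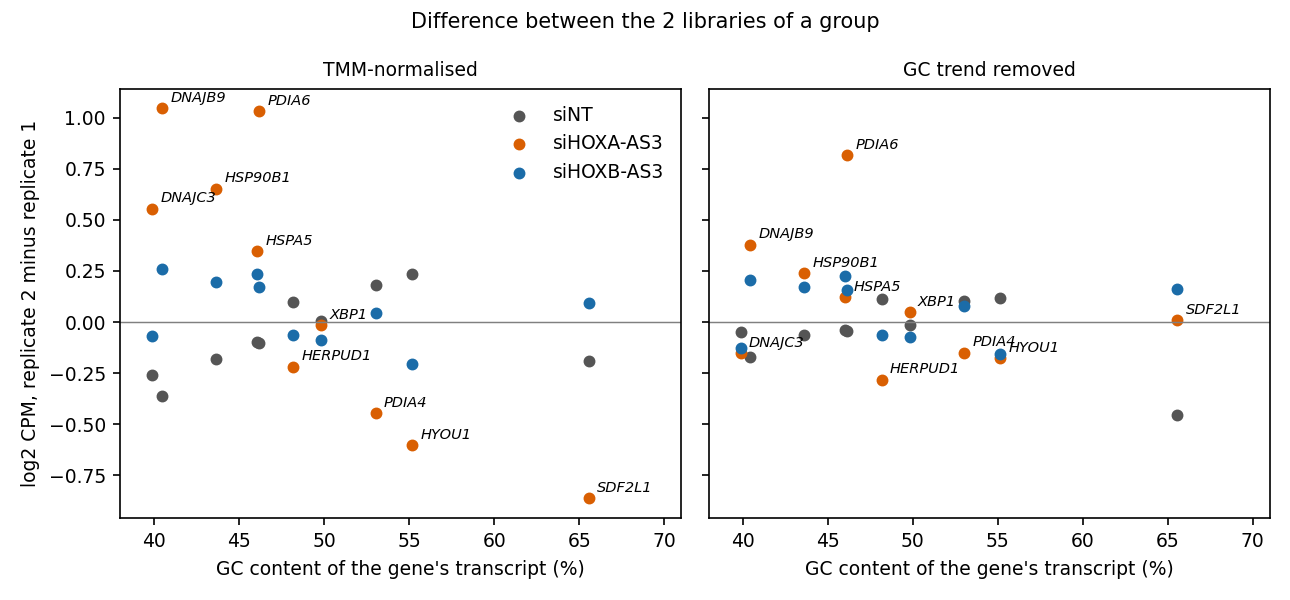
Difference in log2 CPM between replicate 2 and replicate 1 of each group, plotted against the GC content of each of the 10 genes, after TMM normalisation (left) and with a loess trend on GC content removed per library (right). The siHOXA-AS3 points run from 1.04 to -0.86 with rising GC on the left and are narrower on the right, except for PDIA6 at 0.82.

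With the GC trend removed, HYOU1 was lower in siHOXA-AS3 and passed the test (log2 fold change -0.46 ± 0.10 SE, edgeR adjusted p = 0.0386), 1 of the 10 members beside 5.55% of all genes. The call was lost when the replicate block was added to that fit (adjusted p = 0.0675) and when only the siNT and siHOXA-AS3 libraries were fitted with the trend removed (adjusted p = 0.116). Leaving out either siHOXA-AS3 library changed which members were called. Without replicate 1, edgeR called 5 members (HYOU1, DNAJB9, DNAJC3, PDIA4 and PDIA6) beside 30.3% of all genes. Without replicate 2 it called 4 (HSP90B1, SDF2L1, PDIA6 and HERPUD1) beside 17.9% of all genes. PDIA6 was called in both, with opposite signs (log2 fold changes of 0.46 and -0.57). In these fits the remaining siHOXA-AS3 library is assumed to vary like the libraries of the other groups.

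HOXB-AS3 KD against siNT showed lower XBP1 and higher SDF2L1 in both siHOXB-AS3 libraries, without either passing the test. Each was called in 7 of 18 fits, which reuse the same 6 libraries and include some chosen after seeing the data. In edgeR's fit of all 6 libraries, 0 of the 10 members passed, beside 0.0614% of all genes tested. XBP1 and SDF2L1 had an unadjusted p under 0.05, as did 1586 of all genes, and DESeq2 (2.66% of all genes) and limma-trend called 0 members. XBP1 had a log2 fold change of -0.58 ± 0.13 SE (a fold of 0.668, adjusted p = 0.154) and SDF2L1 one of 1.10 ± 0.34 SE (a fold of 2.14, adjusted p = 0.262). HERPUD1 (-0.33 ± 0.16 SE), HYOU1 (-0.31 ± 0.23 SE) and HSP90B1 (0.23 ± 0.23 SE) had smaller values. The main ER Hsp70 HSPA5 stood at -0.15 ± 0.17 SE, and DNAJB9, DNAJC3, PDIA4 and PDIA6 lay between -0.10 and 0.12. The median of the 10 was -0.09, beside -0.01 over all genes tested. Libraries did not overlap for 5 of the 10 genes, with XBP1, HERPUD1 and HYOU1 lower and SDF2L1 and HSP90B1 higher, beside 61.8% of all genes tested.

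When only the siNT and siHOXB-AS3 libraries were fitted, 4 of the 10 members passed, beside 23.3% of all genes tested. XBP1 (edgeR adjusted p = 4.93e-05), HERPUD1 (adjusted p = 0.0216) and HYOU1 (adjusted p = 0.0341) fell and SDF2L1 rose (adjusted p = 0.0022), with nearly the same log2 fold changes as with 6 libraries. DESeq2 on the same 4 libraries also called these 4 genes, beside 18.6% of all genes, as did edgeR on them with the GC trend removed, beside 34.4%. Leaving out either siHOXA-AS3 library from the fit of all groups called the same 4 genes, beside 22.7% of all genes without replicate 1 and 22.6% without replicate 2. With the GC trend removed in all 6 libraries, XBP1 (adjusted p = 0.0034) and SDF2L1 (adjusted p = 0.0087) were called, beside 15% of all genes, and again with the replicate block added, beside 11.7%. HERPUD1 and HYOU1 were called in 5 of the 18 fits each. The adjusted p of XBP1 over the edgeR, DESeq2 and limma fits ran from 8.46e-09 (DESeq2 on the 4 libraries) to 1.0 (edgeR without siHOXB-AS3 replicate 2), while its log2 fold change stayed between -0.63 and -0.54. That of SDF2L1 stayed between 1.01 and 1.21.

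**Figure D4:**
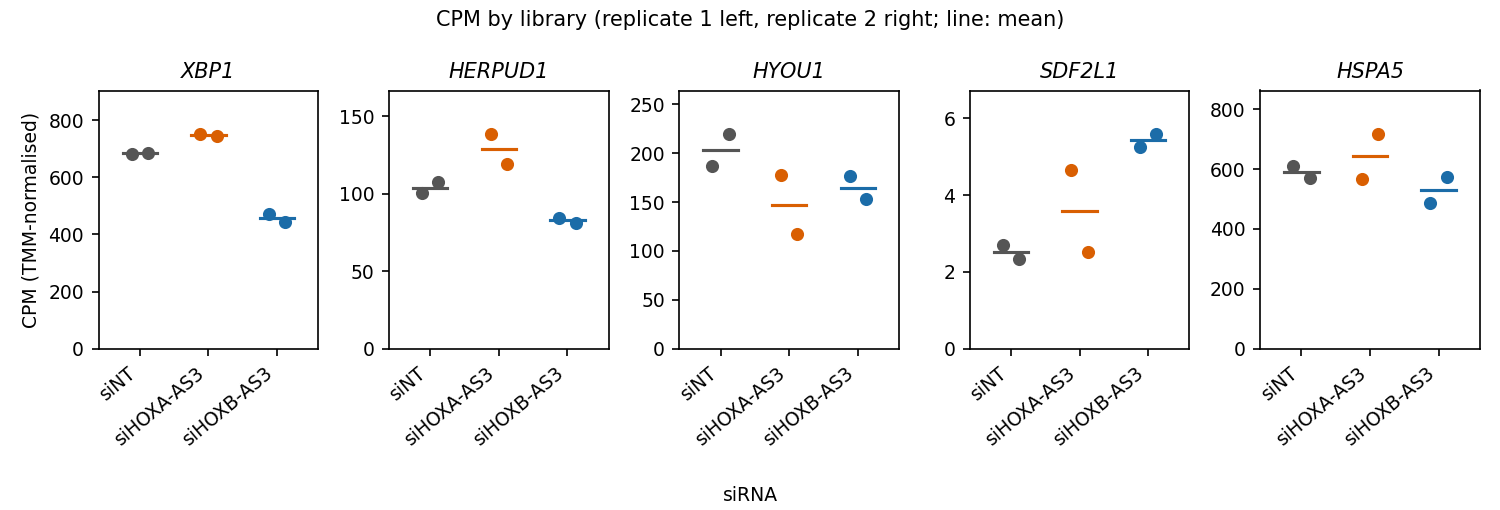
TMM-normalised CPM of XBP1, HERPUD1, HYOU1, SDF2L1 and HSPA5 in each library, with replicate 1 left and replicate 2 right in each group and a line at the mean of 2 libraries. XBP1 lies at 443 and 470.0 CPM in siHOXB-AS3 and at 683 to 753 CPM in the other 4 libraries, while the HSPA5 libraries of siNT and siHOXB-AS3 overlap.

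HOXB-AS3 KD against HOXA-AS3 KD compared the 2 knockdowns with each other, and XBP1 and HERPUD1 were lower in siHOXB-AS3 without passing the test. In edgeR's fit of all 6 libraries, 0 of the 10 members passed, beside 1.57% of all genes tested. XBP1 had a log2 fold change of -0.72 ± 0.13 SE (a fold of 0.609, adjusted p = 0.0547) and HERPUD1 one of -0.64 ± 0.16 SE (adjusted p = 0.109), both with an unadjusted p under 0.05, as had 2398 of all genes. SDF2L1 (0.59 ± 0.33 SE) and DNAJB9 (-0.51 ± 0.36 SE) had larger errors, HSPA5 stood at -0.27 ± 0.17 SE, and PDIA6 at 0.00 ± 0.32 SE. Libraries did not overlap for 3 of the 10, with XBP1 and HERPUD1 lower and SDF2L1 higher, beside 45.3% of all genes tested. The median of the 10 was -0.14, beside -0.01 over all genes.

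XBP1 fell by DESeq2 (adjusted p = 0.0143), as 1 of the 10 members beside 6.08% of all genes. It was also the 1 member called by edgeR without the low-count filter, beside 3.99% of all genes, and with a crossed replicate block, beside 5.82%. With the GC trend removed edgeR called 4 members beside 28.2% of all genes, with XBP1 (adjusted p = 0.000653) and HERPUD1 (adjusted p = 0.0035) lower and SDF2L1 (adjusted p = 0.034) and HSP90B1 (adjusted p = 0.041) higher in siHOXB-AS3. XBP1 and HERPUD1 were called when the replicate block was added to that fit, beside 24.3% of all genes, and these and SDF2L1 when only the knockdown libraries were fitted with the trend removed, beside 20.2%. Without siHOXA-AS3 replicate 1, all members but HSP90B1 were called, 9 of 10 beside 37.8% of all genes. Without siHOXA-AS3 replicate 2, HSP90B1, PDIA6, XBP1 and HERPUD1 were called, beside 36.0% of all genes. XBP1 was called in 8 of the 18 fits, with adjusted p over the edgeR, DESeq2 and limma fits from 7.75e-06 to 0.634, and its log2 fold change stayed between -0.76 and -0.68. That of HERPUD1 stayed between -0.75 and -0.52, and it was called in 5.

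**Figure D5:**
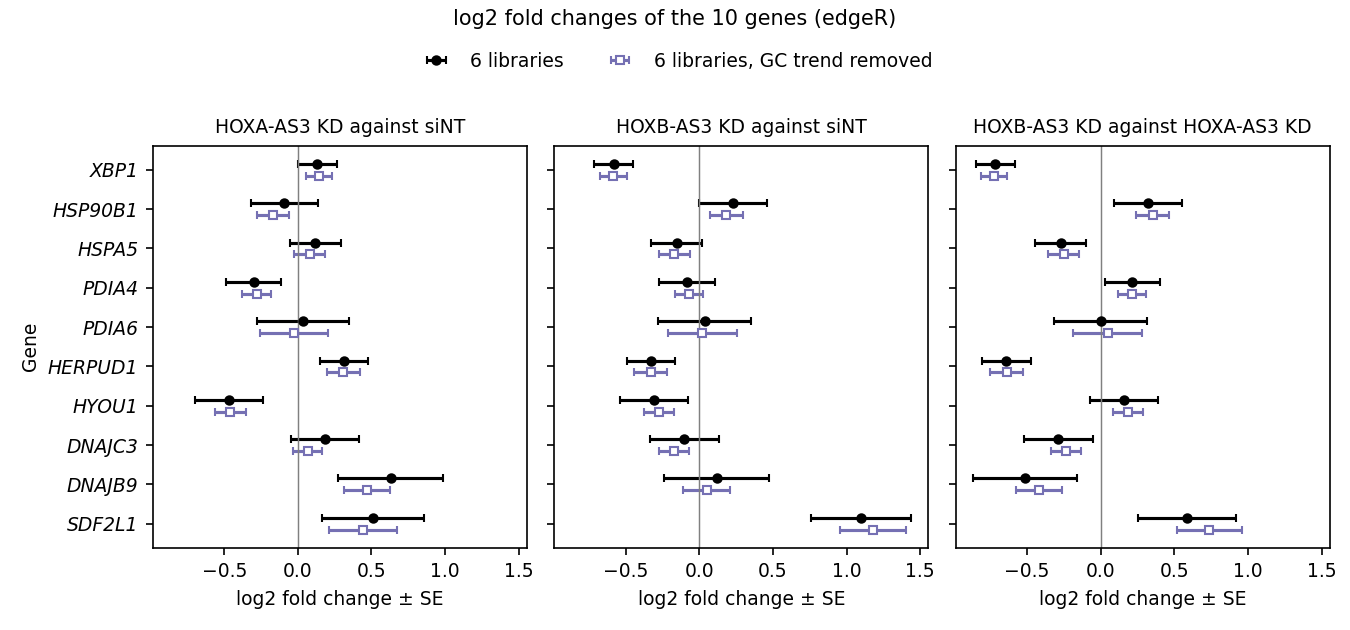
log2 fold changes with SE of the 10 genes from edgeR in the 3 comparisons, for all 6 libraries (black circles) and with the GC trend removed (open squares). XBP1 stands at -0.58 and -0.72 in the siHOXB-AS3 comparisons and at 0.13 in HOXA-AS3 KD against siNT, and the bars are narrower once the trend is removed.

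The 2 knockdown comparisons share the siNT libraries, so their values are given side by side only. The log2 fold changes against siNT were 0.13 in siHOXA-AS3 and -0.58 in siHOXB-AS3 for XBP1, 0.31 and -0.33 for HERPUD1, and 0.12 and -0.15 for HSPA5. Those of HYOU1 were -0.46 and -0.31, and those of SDF2L1 were 0.51 and 1.10.

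Pairs of members differed in how their levels ran over the libraries. Their correlations in log2 CPM span 6 libraries, the 2 siHOXA-AS3 libraries with their GC difference among them, and are a description only. XBP1 and HERPUD1 had r = 0.92 (0.89 with the GC trend removed), and HYOU1 and PDIA4 had r = 0.92 (0.85). DNAJB9 and PDIA4 had r = -0.96 (-0.90), and SDF2L1 and XBP1 r = -0.72 (-0.80). DNAJB9 and DNAJC3 had r = 0.90, which became 0.23 once the trend was removed. HSP90B1 had r = -0.77 (-0.96) with HERPUD1, and its r with DNAJC3 went from 0.34 to -0.95. Of 5432 genes with a mean of at least 10 FPKM, those most like HSPA5 over the 6 libraries were TSPAN6 (r = 0.975), ASAP1 (r = 0.975), MTHFD2 (r = 0.973), CDC16 (r = 0.971) and C14orf119 (r = 0.969). Among members of that level DNAJC3 came closest, at rank 326 (r = 0.82), XBP1 had r = 0.60 and PDIA4 r = -0.71. DNAJB9, under that level and so not ranked, had r = 0.83 with HSPA5.

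Among the stress sensors and their proteases, 11 genes were tested. Here and in the other lists, edgeR on 6 libraries stands for the fit with no GC trend removed. With it none passed against siNT (0 and 3 had an unadjusted p under 0.05 in HOXA-AS3 KD and HOXB-AS3 KD). Between the knockdowns 1 fell, beside 1.57% of all genes called. It was CREB3L1, an ER-anchored transcription factor related to ATF6, at 31.8 and 28.8 FPKM in siNT, 35.5 and 30.5 FPKM in siHOXA-AS3, and 14.8 and 12.4 FPKM in siHOXB-AS3. Its log2 fold change was -1.24 ± 0.19 SE between the knockdowns (edgeR adjusted p = 0.0391, and 0.142 with only the knockdown libraries, with a call in 12 of 18 fits) and -1.11 ± 0.19 SE against siNT (adjusted p = 0.101). ATF6B, a relative of the sensor ATF6, had -0.53 ± 0.27 SE in HOXB-AS3 KD against siNT (adjusted p = 0.507), and RTCB, the ligase that joins the cut XBP1 mRNA, had 0.10 ± 0.17 SE. The median of the list in this comparison was -0.21. Of all 13034 genes tested, 803, 1586 and 2398 had an unadjusted p under 0.05 in HOXA-AS3 KD, HOXB-AS3 KD and between the knockdowns. Their median log2 fold changes were 0.01, -0.01 and -0.01. These values stand beside the edgeR counts and medians of every list. DESeq2 on the 6 libraries called 0, 3 and 2 genes of the list in HOXA-AS3 KD, HOXB-AS3 KD and the knockdowns against each other, where it called 0.391%, 2.66% and 6.08% of all genes. The same shares stand beside the DESeq2 counts of the other lists. These were CREB3L1 and its relative CREB3L2 (log2 fold change -0.94 ± 0.25 SE against siNT, DESeq2 adjusted p = 0.0116), both lower in siHOXB-AS3, and, against siNT only, ERN2, the epithelial form of IRE1 (-1.60 ± 0.48 SE, adjusted p = 0.0340). List genes named for a DESeq2 call were chosen after their values were seen.

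The PERK and ATF4 branch had 10 genes tested. In each of the 3 comparisons edgeR on 6 libraries called 0, with 1, 2 and 5 genes at an unadjusted p under 0.05. ATF4, the transcription factor translated when PERK is active, had a log2 fold change of 0.07 ± 0.20 SE in HOXB-AS3 KD against siNT and -0.06 ± 0.20 SE in HOXA-AS3 KD against siNT. TRIB3, an ATF4 target that feeds back on it, had 0.02 ± 0.24 SE and 0.15 ± 0.24 SE, and ASNS, the asparagine synthetase, 0.10 ± 0.15 SE and 0.19 ± 0.15 SE. DESeq2 called 1 gene in HOXA-AS3 KD, NUPR1, a stress-induced chromatin protein, which fell (log2 fold change -2.15 ± 0.32 SE, adjusted p = 5.64e-08, against an edgeR adjusted p of 0.36). In HOXB-AS3 KD it called ATF3, a stress-induced transcription factor, which rose (0.90 ± 0.25 SE, adjusted p = 0.0141). Between the knockdowns it called 4 genes, with NUPR1, ATF3 and PPP1R15A, which restores translation after PERK, higher and CHAC1, a glutathione-degrading enzyme, lower in siHOXB-AS3.

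Of the other ER folding factors 21 genes were tested and edgeR on 6 libraries called 0 in each comparison, with 0, 2 and 3 at an unadjusted p under 0.05. CALR (calreticulin, a lectin chaperone for glycoproteins) stood at 232 and 260.2 FPKM in siNT, 258 and 180.3 FPKM in siHOXA-AS3, and 118 and 142 FPKM in siHOXB-AS3, where both libraries were lowest (log2 fold change -0.87 ± 0.21 SE against siNT, edgeR adjusted p = 0.178). SERP1, which guards membrane proteins during translocation, had -0.35 ± 0.15 SE (adjusted p = 0.434), and the proline isomerase PPIB had 0.12 ± 0.14 SE. The list had a median of -0.10 in this comparison. DESeq2 on 6 libraries called CALR against siNT (adjusted p = 0.0261) and DNAJC10, a disulfide reductase with a J domain, between the knockdowns (log2 fold change -0.82 ± 0.28 SE, adjusted p = 0.0473). Fitted with the siNT and siHOXB-AS3 libraries only, edgeR called 23.3% of all 12830 genes, of which 1554 fell and 1441 rose. Of the 21 folding factors 7 fell and 2 rose there. CALR (adjusted p = 2.68e-06) and SERP1 (adjusted p = 0.00672) were among those that fell. In that fit 4 of the 11 sensors and proteases fell, ATF6B (adjusted p = 0.000562) among them, and 0 rose. Of the 10 PERK and ATF4 genes 2 fell and 3 rose, and of 19 degradation genes 4 fell and 2 rose. Of 25 translocon, signal peptidase and oligosaccharyltransferase genes 1 fell and 2 rose. Of 13 cytosolic chaperones 3 fell and 2 rose, and of 6 mitochondrial ones 0 fell and 2 rose.

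For ER-associated degradation, 19 genes were tested and edgeR on 6 libraries called 0 in each comparison (0, 3 and 6 at an unadjusted p under 0.05). Medians were 0.11, -0.11 and -0.21 in HOXA-AS3 KD, HOXB-AS3 KD and the knockdowns against each other. DERL1, a channel component, had -0.27 ± 0.18 SE in HOXB-AS3 KD against siNT, UFD1 had 0.16 ± 0.15 SE and SELENOS -0.07 ± 0.17 SE. DESeq2 called 0, 0 and 3 of them. The 3, all lower in siHOXB-AS3 than in siHOXA-AS3, were the mannose-trimming factors EDEM1 (log2 fold change -0.96 ± 0.23 SE, adjusted p = 0.00151) and EDEM3 (-0.99 ± 0.32 SE, adjusted p = 0.037) and the ubiquitin-conjugating enzyme UBE2J1 (-0.74 ± 0.24 SE, adjusted p = 0.0338).

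For the translocon, signal peptidase and oligosaccharyltransferase, 25 genes were tested. Here edgeR on 6 libraries called 0 in each comparison (3, 1 and 5 at an unadjusted p under 0.05). DESeq2 called OSTC, an oligosaccharyltransferase subunit, higher in siHOXB-AS3 than in siHOXA-AS3 (adjusted p = 0.0461). The median in HOXB-AS3 KD against siNT was 0.00. In that comparison SSR4 had 0.00 ± 0.27 SE, SEC61G 0.17 ± 0.28 SE and RPN2 0.22 ± 0.14 SE. Chaperones outside the ER were not called by edgeR on 6 libraries either. Those at an unadjusted p under 0.05 were 2, 1 and 7 cytosolic and 0, 0 and 1 mitochondrial genes. DESeq2 called HSPA1A and HSPA1B, near-identical heat shock genes whose reads cannot be told apart with certainty, lower in siHOXB-AS3 than in siHOXA-AS3, and no mitochondrial chaperone. Of the cytosolic ones 13 were tested, with a median of 0.01, and HSPA8, HSP90AB1 and STIP1 had -0.06 ± 0.14 SE, 0.36 ± 0.15 SE and 0.23 ± 0.14 SE in HOXB-AS3 KD against siNT. Of the mitochondrial ones 6 were tested, with a median of 0.14, and HSPD1, HSPA9 and TRAP1 had 0.29 ± 0.26 SE, 0.05 ± 0.14 SE and 0.33 ± 0.24 SE. With the GC trend removed edgeR called 28.2% of all genes between the knockdowns, 1978 higher and 1694 lower in siHOXB-AS3. It called genes of all the lists above. Those higher and lower in siHOXB-AS3 numbered 0 and 4 sensors and proteases, 4 and 1 PERK and ATF4 genes, and 2 and 4 other folding factors. They numbered 2 and 6 degradation genes, 5 and 2 translocon-list genes, 4 and 4 cytosolic and 2 and 0 mitochondrial chaperones.

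Some epithelial markers were lower in the siHOXB-AS3 libraries, as XBP1 was, and 8 of the 9 were tested. CEACAM5, a cell adhesion glycoprotein, fell in HOXB-AS3 KD (log2 fold change -1.63 ± 0.15 SE against siNT, edgeR adjusted p = 0.0492, and -1.58 ± 0.15 SE against HOXA-AS3 KD, adjusted p = 0.0173). With only the knockdown libraries its edgeR adjusted p was 0.0826, and over the 18 fits it was called in 13 against siNT and in 12 against HOXA-AS3 KD. EPCAM, the epithelial adhesion molecule, fell against HOXA-AS3 KD (-0.82 ± 0.14 SE, adjusted p = 0.0471, and 0.178 with only the knockdown libraries, with a call in 11 of 18 fits) and had -0.81 ± 0.14 SE against siNT (adjusted p = 0.101, and 0.0106 by DESeq2). CDH1, the cadherin of epithelial junctions, was called by DESeq2 between the knockdowns (-0.66 ± 0.22 SE, adjusted p = 0.0441). The keratins KRT18, KRT8 and KRT20 had 0.14 ± 0.23 SE, 0.20 ± 0.31 SE and -0.11 ± 0.16 SE against siNT, and the 9 markers summed to 3321 to 3550.0 FPKM in siNT, 2728 to 3953 FPKM in siHOXA-AS3 and 3260 to 3448 FPKM in siHOXB-AS3. Their part in the values of XBP1 was not tested.

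Genes with the promoter element were compared last. Of the genes tested, 31 had ERSE or ERSE-II in a window, 7 of them members. The other 24 had a median log2 fold change of -0.08 in HOXA-AS3 KD against siNT, 0.07 in HOXB-AS3 KD against siNT and 0.16 between the knockdowns. In edgeR's fit of all 6 libraries, with no GC trend removed, 0 of them were called in each comparison. The shares of all genes called were 0.0%, 0.0614% and 1.57% in the same order, so 0 of 24 says little. Among the 7 members, log2 fold changes in HOXB-AS3 KD against siNT went both ways, and none passed the test in that fit. They were 1.10 ± 0.34 SE for SDF2L1, 0.23 ± 0.23 SE for HSP90B1 and 0.036 ± 0.32 SE for PDIA6. The negative ones were XBP1 (-0.58 ± 0.13 SE), HERPUD1 (-0.33 ± 0.16 SE), HYOU1 (-0.31 ± 0.23 SE) and HSPA5 (-0.15 ± 0.17 SE).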

How the data were processed

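PolyA RNA of HT-29 cells was sequenced in 6 libraries, 2 per siRNA, grouped by the sample labels. For every library the authors deposited RSEM's output per RefSeq gene, with expected counts (estimated fragments per gene, without normalization), TPM and FPKM. The submitters' processing notes name RSEM and the genome build hg19. Strand use, aligner and version of RSEM were not given in the sources used here. Each file held 27434 rows. Rows that join several genes stayed in the fit, and list genes joined with another coding gene (TXNDC5, CNPY2, CNPY3 and HSPE1) were left out of the lists.

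The deposited expected counts were rounded to whole numbers. edgeR 4.0.16 (R 4.3.3) applied filterByExpr at a minimum count of 10, TMM scaling and a robust quasi-likelihood test to all 6 libraries together. Benjamini-Hochberg adjustment covered the 13034 genes tested, at a threshold of 0.05. Of every log2 fold change the standard error is given. FPKM and TPM were used as deposited, for levels and, for FPKM, in the limma alternative. Depth was 15998518 to 26263938 expected counts, and with 2 libraries per group the precision is set by the spread between libraries.

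Alternatives were DESeq2 1.42.0, RLE size factors, no filter (at least 1 count), a block on the replicate number, only the groups compared, limma-trend (limma 3.58.1) on log2(FPKM + 0.1), a loess trend on GC content (span 0.5) removed per library, the same with the block, and each library left out in turn. Chosen after seeing the data were a crossed block, and the groups compared fitted with the GC trend removed or with DESeq2. GC content came from GENCODE v29 transcripts, with a value for 97.96% of the genes tested. Gene positions and promoters came from RefSeq (GRCh38.p14), so no position is in the build of the files. The steps were tested on simulated counts.

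The members and the gene lists were chosen with earlier results of these data known. Named beside the 10 members were the targeted genes, from each list the 3 genes highest in mean FPKM and every gene called with 6 libraries, and the 5 genes most like HSPA5. No protein sequences were used here.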

Additional observations from a re-analysis of the deposited data

Results flagged for a closer look

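XBP1 and HERPUD1 were flagged because in each both siHOXA-AS3 libraries lay above both siNT libraries and both siHOXB-AS3 libraries lay below them in log2 CPM. The share of all genes with that order was not computed. Of all genes tested, libraries did not overlap for 28.6% in HOXA-AS3 KD, 61.8% in HOXB-AS3 KD and 45.3% between the knockdowns. The log2 fold change of HOXB-AS3 KD against HOXA-AS3 KD was -0.72 for XBP1 (edgeR adjusted p = 0.0547) and -0.64 for HERPUD1 (edgeR adjusted p = 0.109), so the difference itself missed the threshold in the fit of all 6 libraries. Over the 18 fits XBP1 was called in 8 and HERPUD1 in 5. Groups of 2 libraries are too small to look for single libraries that stand apart.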

How the results depend on the processing

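With edgeR on all 6 libraries, TMM scaling and the low-count filter, 0 members were called in each comparison. In HOXA-AS3 KD against siNT 1 member was called with the GC trend removed, 0 with that and the block, and 0 to 5 when 1 library was left out. In HOXB-AS3 KD against siNT 4 were called with only the groups compared (also with DESeq2 or the GC trend removed), 2 with the GC trend removed, with or without the block, and 0 to 4 with 1 library left out. In HOXB-AS3 KD against HOXA-AS3 KD 1 was called by DESeq2, without the low-count filter and with the crossed block, 4 with the GC trend removed, 2 with that and the block, 3 with only the groups compared and the GC trend removed, and 0 to 9 with 1 library left out. With either siHOXA-AS3 library left out, that group has 1 library and adds nothing to the estimate of the spread. Why calls differed between the fits was not tested. Over all genes, calls with that edgeR fit, DESeq2 and no filter numbered 0, 51 and 24 in HOXA-AS3 KD, 8, 347 and 265 in HOXB-AS3 KD, and 204, 792 and 706 between the knockdowns.

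Of 510 alternative log2 fold changes 423 kept direction and side of the threshold, 57 kept direction and crossed to called, and 30 reversed. Part of the 57 came from fits without a siHOXA-AS3 library. As the fit of all 6 libraries called 0 members, no call could be lost. For PDIA6 the reversed values were, in HOXA-AS3 KD, -0.034 with the replicate block, -0.062 with limma-trend, -0.025 with the GC trend removed, -0.069 with that and the block, and -0.031 with the crossed block. In HOXB-AS3 KD limma-trend gave -0.017. Between the knockdowns DESeq2 gave -0.017, RLE size factors -0.016, no filter -0.020, only the groups compared -0.0087, and that with DESeq2 -0.012. With 1 library left out, values in HOXA-AS3 KD ran from -0.059 to 0.28 for HSPA5, -0.45 to 0.20 for HSP90B1, -0.11 to 0.43 for DNAJC3, -0.017 to 0.88 for SDF2L1, 0.017 to 1.06 for DNAJB9 and -0.57 to 0.46 for PDIA6. In HOXB-AS3 KD they ran from -0.049 to 0.31 for DNAJB9, -0.22 to 0.033 for DNAJC3, -0.17 to 0.011 for PDIA4 and -0.051 to 0.12 for PDIA6. Between the knockdowns they ran from -0.12 to 0.50 for HYOU1, -0.95 to 0.093 for DNAJB9, -0.54 to 0.010 for DNAJC3 and -0.42 to 0.60 for PDIA6.

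Deviations of same-numbered libraries had correlations of -0.35 (siNT and siHOXA-AS3), -0.14 (siNT and siHOXB-AS3) and 0.15 (siHOXA-AS3 and siHOXB-AS3). The deviations also had r = -0.39 (siNT), 0.75 (siHOXA-AS3) and 0.14 (siHOXB-AS3) with GC content. These correlations therefore cannot show whether the numbers pair the libraries. With the replicate block 0 members and 0, 0 and 10 genes were called in the 3 comparisons. With siNT numbers crossed, chosen after seeing the data, 0, 0 and 1 members and 14, 225 and 758 genes were called. Ranks of the members in siNT were the same in TPM. With 2 libraries per group, differences of small size could not be detected.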
